A study of Mus musculus with 12 samples.

Results

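Complement is made mostly by the liver, but tissue macrophages make several of its proteins themselves. A set of 9 mouse genes was followed here: C1qa, C1qb, C1qc, C4b and C2 of the classical pathway, Fcna (ficolin A) of the lectin pathway, C3, the component shared by all pathways, Cfp (properdin) of the alternative pathway, and C6 of the terminal pathway. They were taken by name from the 46517 genes of the count table, through their Ensembl identifiers. All 9 were among the 14216 genes with enough counts to be tested. The libraries are bulk RNA sequencing of macrophages from adult, wild-type C57/BL6 mice, 3 libraries in each of 4 groups: aorta LYVE1+, aorta LYVE1-, fat LYVE1+ and fat LYVE1-. The sort kept live cells with surface F4/80, CD11b, MerTK, CD64 and CD45 and then split them by LYVE-1, a receptor for the matrix sugar hyaluronan. Aortic cells came from 30 mice, and fat cells from the epididymal and subcutaneous depots of 20. The labels do not say which mice were pooled into which library, so every p-value measures the spread between these libraries, which may be technical.

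In the classical pathway, C1q binds antibody or dying cells and the attached proteases C1r and C1s cut C4 and C2 to form an enzyme that splits C3. In the lectin pathway, ficolins and mannose-binding lectin recognise sugars and acetylated groups and act through the MASP proteases on the same C4 and C2. The alternative pathway amplifies C3 splitting with factor B and factor D, and properdin holds its enzyme together. C6 is one of the components that assemble into the membrane attack complex. C1q made by macrophages is also known as a tag that helps them take up dying cells.

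Libraries held between 5049936 and 29792301 counts. Of the sort genes, Lyve1 was higher in fat LYVE1+ than in fat LYVE1- cells (log2 fold change 2.04, SE 0.33, edgeR, adjusted p = 0.00383), and in the aorta the value was 1.31 (SE 0.32, edgeR, adjusted p = 0.108). Its transcript was present in every LYVE1- library. In CPM (counts scaled to the total of the library), aorta LYVE1- libraries had 868 to 1323, against 2044 to 2807 in aorta LYVE1+. Fat LYVE1- libraries had 230 to 611 CPM, against 1497 to 2193 CPM in fat LYVE1+. The fat libraries numbered 1 stood apart. Mitochondrial transcripts were 8.85% of counts in fat LYVE1+ library 1 and 12.1% in fat LYVE1- library 1, against 1.79% to 3.2% in the other 10 libraries. Their 5 erythroid markers summed to 25124 and 5211 CPM (counts scaled to the total of the library), against at most 1401 CPM elsewhere. The sum of 6 monocyte markers was at most 24.8 CPM in the aorta LYVE1+ group, against 157 to 312 CPM in aorta LYVE1-, and 76.9 to 280 CPM in the fat LYVE1+ group, against 655 to 813 CPM in fat LYVE1-. Most of that sum was Ccr2, with 43.4 to 147 CPM in fat LYVE1+ and 637 to 725 CPM in fat LYVE1- libraries, and 1 of the 6 was called lower in each tissue. Plac8 had 22.5 to 27.3 CPM in fat LYVE1+, against 7.65 to 17.1 CPM in fat LYVE1-. None of the 6 was at 0 in all libraries of a group. Lymphatic endothelial markers, 5 in all, summed to 13.9 to 42.1 CPM in aorta LYVE1+, against 9.29 to 18.2 CPM in aorta LYVE1-, and to 3.02 to 15.9 CPM in fat LYVE1+, against 1.67 to 7.55 CPM in fat LYVE1-, where Flt4 and Reln had no count. Of the 4 tested, none was called in the aorta and 1 was called higher in fat. The sum of 8 dendritic markers was 174 to 201 CPM in aorta LYVE1+, against 298 to 361 CPM in aorta LYVE1- (1 called lower), and 371 to 491 CPM in fat LYVE1+, against 241 to 532 CPM in fat LYVE1- (1 called higher). In the aorta 6 mast cell markers summed to 1.85 to 12.3 CPM in LYVE1+, against 46.6 to 78.1 CPM in LYVE1- (none called), and 6 eosinophil markers to 0.30 to 2.41 CPM in LYVE1+, against 9.53 to 27.8 CPM in LYVE1- (1 called lower). The part of any of these cells in the results below was not tested. Of 5 hepatocyte markers, 2 or 3 had no count in any library of a group, and the sum was at most 1.42 CPM in every library.

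Within fat, 4 of the 9 genes, Fcna, C2, C4b and C6, were called higher in LYVE1+ than in LYVE1- macrophages and none lower, at an adjusted p below 0.05 over all tested genes, while 1.82% of all genes were called higher. In the aorta none of the 9 was called with edgeR, beside 0.542% of all genes. DESeq2 called 1 of them there (Fcna), and 1 had an unadjusted p below 0.05 with edgeR, beside 11.3% of all genes. The 3 LYVE1+ libraries lay above the 3 LYVE1- libraries for 7 of the 9 genes in the aorta and for 4 in fat, while 11.1% of all genes in the aorta and 9.12% in fat did so. In the aorta all LYVE1- libraries have identifiers that begin with RHH. Of the aorta LYVE1+ libraries, 1 and 2 begin with RMM and 3 with RHH. Sort and this prefix are thus largely split alike in the aorta and cannot be fully told apart there. Averaged over the tissues the same 4 genes as in fat were called higher (2.91% of all genes were called higher), and 7 had an unadjusted p below 0.05 (6 higher and C3 lower), beside 20.8% of all genes. The median log2 fold change of the 9 genes was 0.48 in the aorta and 0.55 in fat, against -0.01 and 0.00 over all tested genes.

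**Figure D1:**
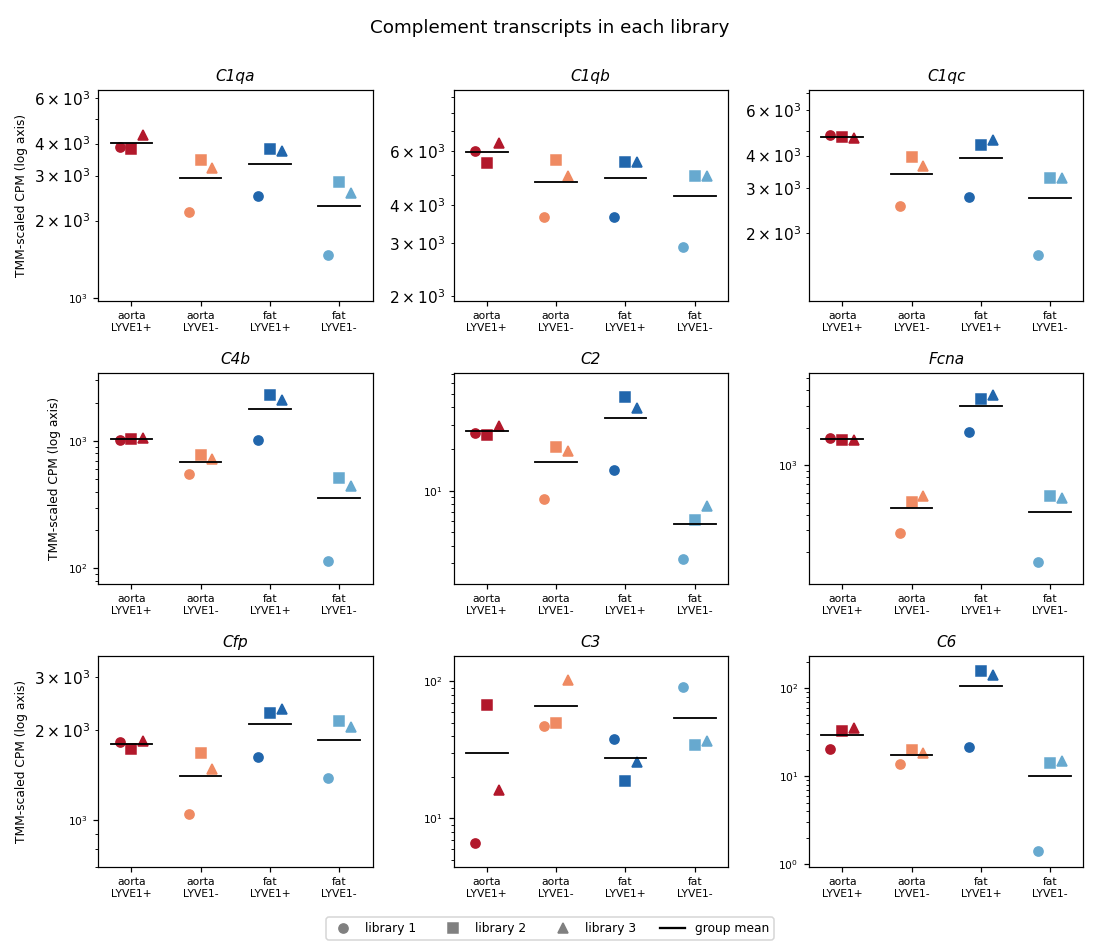
Level of each of the 9 complement genes in the 12 libraries, in CPM scaled by trimmed mean of M values (TMM) factors, on a log axis that differs between panels; symbols are libraries 1 to 3 and bars are group means. C4b, C2, Fcna and C6 lie higher in fat LYVE1+ than in fat LYVE1- libraries without overlap, and the libraries numbered 1 are the lowest of both fat groups for these 4 genes.

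C1qa, C1qb and C1qc encode the 3 chains of C1q, and sit side by side on chromosome 4 (GRCm38, all on the minus strand): C1qb at 136880129 to 136886187, C1qc at 136889804 to 136893065 and C1qa at 136895917 to 136898803. They were among the most abundant transcripts of these cells, ranked 32, 17 and 26 of 14216 genes by mean CPM for C1qa, C1qb and C1qc. C1qa had 3888, 3816 and 4330 CPM in aorta LYVE1+ libraries, against 2155, 3459 and 3198 CPM in aorta LYVE1- libraries, and 2489, 3805 and 3733 CPM in fat LYVE1+ libraries, against 1461, 2832 and 2574 CPM in fat LYVE1- libraries. The aortic groups did not overlap for this chain and the fat groups did, through fat LYVE1+ library 1. C1qb had 6016, 5496 and 6365 CPM in aorta LYVE1+ libraries, against 3637, 5605 and 4981 CPM in aorta LYVE1- libraries, and 3654, 5534 and 5544 CPM in fat LYVE1+ libraries, against 2904, 4959 and 4986 CPM in fat LYVE1- libraries. For C1qb the groups overlapped in both tissues. C1qc had 4794, 4713 and 4688 CPM in aorta LYVE1+ libraries, against 2556, 3954 and 3649 CPM in aorta LYVE1- libraries, and 2759, 4391 and 4592 CPM in fat LYVE1+ libraries, against 1651, 3273 and 3268 CPM in fat LYVE1- libraries. In every group but aorta LYVE1+ the library numbered 1 was the lowest for each chain.

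No chain was called between the sorts. In the aorta the log2 fold change was 0.45 for C1qa (95% interval -0.11 to 1.01, edgeR, adjusted p = 0.552), 0.33 for C1qb (-0.20 to 0.86, adjusted p = 0.66) and 0.48 for C1qc (-0.11 to 1.07, adjusted p = 0.544). In fat it was 0.55 for C1qa (edgeR, adjusted p = 0.338), 0.20 for C1qb (adjusted p = 0.773) and 0.52 for C1qc (adjusted p = 0.401). Fat libraries of equal number deviated together, though libraries 2 and 3 did so about as much across numbers. With that number as a replicate block in fat, a fit added after the data were seen, C1qa (0.58, SE 0.15, edgeR, adjusted p = 0.0382) and C1qc (0.55, SE 0.14, adjusted p = 0.0316) were called higher in fat LYVE1+ cells.

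The proportions of the chains were set side by side per length. When each level was divided by the length of the gene's exons, C1qb made up 47.1%, 45.3% and 47.0% of the 3 chains in aorta LYVE1+ libraries, against 49.6%, 48.9% and 48.0% in aorta LYVE1- libraries. Its share was 46.8%, 46.2% and 46.1% in fat LYVE1+ libraries, against 54.2%, 50.8% and 52.4% in fat LYVE1- libraries. In both tissues every LYVE1- library thus had a larger C1qb share than every LYVE1+ library. The share of C1qa was 33.3%, 33.2% and 32.4% in fat LYVE1+ libraries and 28.5%, 30.3% and 28.3% in fat LYVE1- libraries, without overlap, while the aortic groups ranged from 31.8% to 33.5% and from 30.7% to 32.2%. These shares were not tested, and their size depends on the annotated exon lengths.

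**Figure D2:**
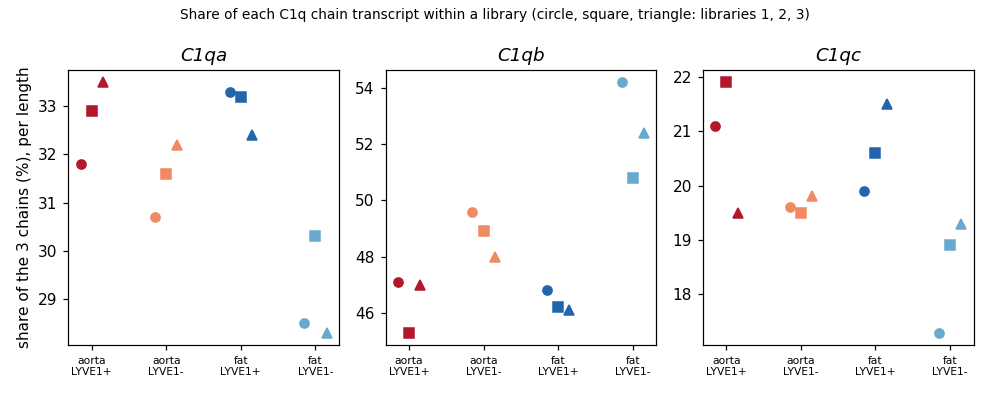
Share of each C1q chain among the 3, after division by exon length, in percent, for every library of the 4 groups; the axes do not start at 0. The C1qb share lies between 50.8% and 54.2% in fat LYVE1- libraries and between 46.1% and 46.8% in fat LYVE1+ libraries.

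The windows around the starts of C1qb and C1qc are shown because they belong to neighbouring genes that were both highly abundant. They run from 250 bases before to 50 after the RefSeq start (GRCm38.p6, minus strand, written 5′ to 3′), C1qb at chr4:136886151-136886450 and C1qc at chr4:136892865-136893164. Capitals mark GAGGAA, a core of sites for the macrophage lineage factor PU.1, and TGCTGA, a half-site of MAF family factors, on either strand.
C1qb: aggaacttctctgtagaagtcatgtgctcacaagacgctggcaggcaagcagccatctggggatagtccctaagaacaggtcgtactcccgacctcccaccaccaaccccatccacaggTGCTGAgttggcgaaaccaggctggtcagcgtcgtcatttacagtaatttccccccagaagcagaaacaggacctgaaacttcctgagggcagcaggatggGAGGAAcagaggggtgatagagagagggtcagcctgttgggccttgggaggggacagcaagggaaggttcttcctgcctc
C1qc: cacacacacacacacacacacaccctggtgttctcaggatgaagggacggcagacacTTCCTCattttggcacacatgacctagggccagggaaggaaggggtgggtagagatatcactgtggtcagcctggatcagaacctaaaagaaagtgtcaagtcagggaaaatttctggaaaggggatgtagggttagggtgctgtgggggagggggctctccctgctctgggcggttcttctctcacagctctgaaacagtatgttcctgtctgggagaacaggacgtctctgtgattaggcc
RefSeq windows were matched for 6 of the 9 genes. GAGGAA was found in 4 of those 6 (C1qb, C1qc, Cfp and Fcna), against 28.3% of all 32851 windows of this length, and TGCTGA in 3 (C1qb, C3 and Fcna), against 19.5%. An interferon-stimulated response element motif was found in none of the 6 and in 3.44% of all windows. TTNNGCAA, a C/EBP-type motif, and the TATA-box motif TATAAA were each found in 1 (C3), against 10.8% and 13.6%. Both strands were searched, hits of different motifs did not overlap in the 6 windows, and a match is a description of the letters only.

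C4b and C2 encode the proteins that C1s and the MASP proteases cut. C4b lies at 34728380 to 34743882 and C2 at 34862604 to 34898265 on chromosome 17, both on the minus strand. C4b had 1014, 1033 and 1060 CPM in aorta LYVE1+ libraries, against 553, 778 and 717 CPM in aorta LYVE1- libraries, and 1014, 2287 and 2082 CPM in fat LYVE1+ libraries, against 114, 512 and 447 CPM in fat LYVE1- libraries. Neither tissue showed overlap between the sorts. In fat C4b was 5.02-fold higher in LYVE1+ cells (log2 fold change 2.33, SE 0.44, edgeR, adjusted p = 0.0107). Without fat LYVE1+ library 2 the call was missed (2.11, adjusted p = 0.0535), and also when the fat groups were fitted alone (2.34, SE 0.55, adjusted p = 0.0942). In the aorta the log2 fold change was 0.60 (SE 0.42, edgeR, adjusted p = 0.641). Without both fat libraries numbered 1 the aortic value was still 0.60 and was called (SE 0.12, edgeR, adjusted p = 0.0175). No aortic library was left out there, and the smaller SE comes from the spread that the 4 groups share. With only the aortic groups in the fit C4b was not called. The near-identical paralog C4a had 99 counts in all 12 libraries, and how reads that match both copies were counted was not given in the sources used here, so the split between them is uncertain.

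C2 was scarcer by far. It had 25.9, 25.3 and 29.4 CPM in aorta LYVE1+ libraries, against 8.69, 20.5 and 19.4 CPM in aorta LYVE1- libraries, and 14.2, 47.3 and 39.4 CPM in fat LYVE1+ libraries, against 3.20, 6.18 and 7.77 CPM in fat LYVE1- libraries. In both tissues the sorts did not overlap, and each library numbered 1 of fat lay well under the other 2 of its group. C2 was 5.88-fold higher in fat LYVE1+ cells (log2 fold change 2.56, SE 0.45, edgeR, adjusted p = 0.00682), and the call held without each single fat library and when the fat groups were fitted alone (adjusted p = 0.0489). In the aorta the log2 fold change was 0.72 (SE 0.41, edgeR, adjusted p = 0.549). Zbtb12 on the opposite strand and Gm20547 on the same strand overlap C2 exons, with 32 and 5 counts in all 12 libraries.

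Fcna encodes ficolin A, a secreted lectin that starts the lectin pathway and is a known product of macrophages and liver. It lies on chromosome 2 at 25624666 to 25628030 (minus strand), and its start window (GRCm38.p6, chr2:25627925-25628224, minus strand) is shown because this gene had the smallest adjusted p of the 9 in fat and in the aorta. Capitals again mark GAGGAA and TGCTGA, which occur 4 and 2 times.
Fcna: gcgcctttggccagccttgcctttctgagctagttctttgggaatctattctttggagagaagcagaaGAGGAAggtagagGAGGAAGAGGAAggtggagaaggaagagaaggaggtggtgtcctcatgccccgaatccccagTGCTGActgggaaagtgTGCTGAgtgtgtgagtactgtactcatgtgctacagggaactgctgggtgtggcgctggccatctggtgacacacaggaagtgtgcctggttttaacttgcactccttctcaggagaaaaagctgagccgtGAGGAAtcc
Fcna had 1659, 1605 and 1601 CPM in aorta LYVE1+ libraries, against 284, 509 and 568 CPM in aorta LYVE1- libraries, and 1840, 3425 and 3696 CPM in fat LYVE1+ libraries, against 167, 562 and 543 CPM in fat LYVE1- libraries. The sorts were far apart in both tissues, and the LYVE1+ libraries of the aorta were nearly equal to each other. In fat Fcna was 7.04-fold higher in LYVE1+ cells (log2 fold change 2.82, SE 0.42, edgeR, adjusted p = 0.00271). That call held without each single fat library, with a log2 fold change between 2.44 and 3.08. In the aorta it was 3.58-fold higher (log2 fold change 1.84, SE 0.41, unadjusted p = 0.000614, edgeR, adjusted p = 0.0739) and missed the threshold with all 12 libraries in the fit. With only the aortic groups in the fit it was called (1.83, SE 0.22, adjusted p = 0.00427), and with DESeq2 as well (adjusted p = 0.000149). It was not called without any single aortic library (edgeR, adjusted p up to 0.362). Over all alternatives (edgeR or DESeq2) its aortic value ranged from 1.59 to 2.03, with an adjusted p from 7.44e-05 to 0.584. The antisense gene Fcnaos, on the other strand over Fcna exons, had 49 counts in all 12 libraries. Smart-seq2 libraries do not mark strand, so reads of the overlap could belong to either.

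C3 and Cfp belong to the alternative pathway, and neither was called in any comparison of the main edgeR fit of all 12 libraries. C3 encodes the component that all pathways split, and lies on chromosome 17 at 57203970 to 57228136 (minus strand). It had 6.67, 66.7 and 16.0 CPM in aorta LYVE1+ libraries, against 47.6, 50.1 and 103 CPM in aorta LYVE1- libraries, and 38.0, 18.7 and 25.6 CPM in fat LYVE1+ libraries, against 90.7, 34.6 and 36.7 CPM in fat LYVE1- libraries. It was the only one of the 9 with a negative log2 fold change in either sort comparison, -1.17 in the aorta (SE 0.66, edgeR, adjusted p = 0.54) and -0.99 in fat (SE 0.67, edgeR, adjusted p = 0.539), with overlap in both. Without aorta LYVE1+ library 2, the highest of its group, the aortic value was -2.56 (SE 0.56, edgeR, adjusted p = 0.0923). The value averaged over tissues was -1.08 (SE 0.47, edgeR, adjusted p = 0.208), and without that library C3 was called lower in LYVE1+ cells (-1.77, SE 0.36, adjusted p = 0.0154). Over all alternatives (edgeR or DESeq2) the averaged value ranged from -1.77 to -0.78, with an adjusted p from 0.0124 to 0.42. Without fat LYVE1- library 1 the fat value was -0.40 (SE 0.69, edgeR, adjusted p = 0.871) and the averaged value -0.78 (SE 0.46, adjusted p = 0.42). The aortic value was -0.69 without aorta LYVE1+ library 1 (edgeR, adjusted p = 0.847) and -0.72 without aorta LYVE1- library 3 (adjusted p = 0.774).

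Markers of fibroblasts, which are known to make C3, varied beside it. Over 10 markers the sums were 892, 2554 and 1190 CPM in aorta LYVE1+ libraries, against 1356, 2373 and 1891 CPM in aorta LYVE1- libraries, and sums of 713, 456 and 517 CPM in fat LYVE1+ libraries, against 1113, 612 and 560 CPM in fat LYVE1- libraries. The library with the most of both among aorta LYVE1+ was library 2, among fat LYVE1+ library 1 and among fat LYVE1- library 1. Among aorta LYVE1- it was library 3 for C3 and library 2 for the markers. Between the sorts, none of the 10 was called in the aorta, and 1 was called lower in fat LYVE1+ than in fat LYVE1- cells. Between tissues, 3 were called higher in aorta than in fat LYVE1+ cells and 2 in aorta than in fat LYVE1- cells. None of the 10 was at 0 in all libraries of a group, and their part in the C3 values was not tested. In such bulk libraries fewer cells of a type and less RNA per cell cannot be told apart.

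**Figure D3:**
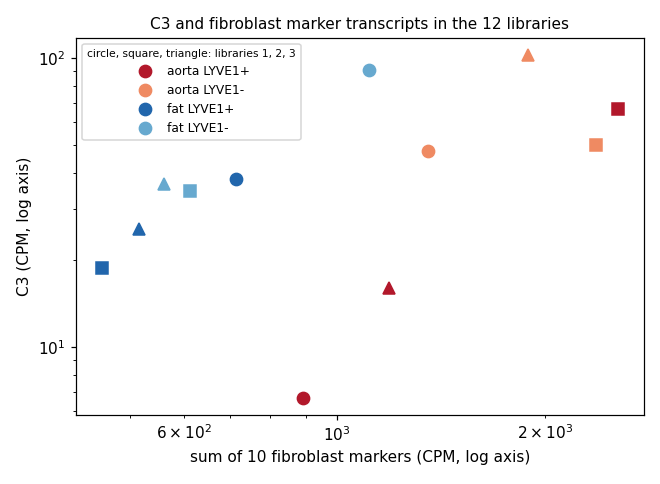
C3 level (CPM) against the summed level of 10 fibroblast markers (CPM) in the 12 libraries, on log axes, with colours for groups and symbols for libraries. Aorta LYVE1+ library 2, with 2554 CPM of markers, has 66.7 CPM of C3, and aorta LYVE1+ library 1, with 892 CPM of markers, has 6.67 CPM. At similar marker sums, aorta LYVE1+ library 3 (1190 CPM) has 16.0 CPM of C3 and fat LYVE1- library 1 (1113 CPM) has 90.7 CPM.

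Properdin, from Cfp on the X chromosome (20925454 to 20931555, minus strand), was abundant and even. Cfp had 1824, 1723 and 1838 CPM in aorta LYVE1+ libraries, against 1049, 1678 and 1484 CPM in aorta LYVE1- libraries, and 1619, 2282 and 2354 CPM in fat LYVE1+ libraries, against 1385, 2135 and 2048 CPM in fat LYVE1- libraries. The aortic sorts did not overlap and the fat sorts did. Its log2 fold change was 0.36 in the aorta (95% interval -0.12 to 0.83, edgeR, adjusted p = 0.58) and 0.17 in fat (-0.31 to 0.64, edgeR, adjusted p = 0.787).

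C6, on chromosome 15 at 4727175 to 4814967 (plus strand), had the largest fold change of the 9 in fat. It had 20.4, 32.8 and 35.6 CPM in aorta LYVE1+ libraries, against 13.8, 20.0 and 18.3 CPM in aorta LYVE1- libraries, and 21.7, 157 and 143 CPM in fat LYVE1+ libraries, against 1.41, 14.0 and 14.8 CPM in fat LYVE1- libraries. The sorts did not overlap in either tissue, and both fat libraries numbered 1 were low, with only 11 counts in fat LYVE1- library 1. C6 was 10.5-fold higher in fat LYVE1+ cells (log2 fold change 3.39, SE 0.71, edgeR, adjusted p = 0.0184). The value was as large without both fat libraries numbered 1 (3.38, SE 0.27, edgeR, adjusted p = 1.16e-05). Only libraries 2 and 3 of each fat group remain in that fit. The call ended without fat LYVE1+ library 2 (3.02, adjusted p = 0.0787) or 3 (adjusted p = 0.0736), without fat LYVE1- library 3 (3.76, adjusted p = 0.0502) and when the fat groups were fitted alone (3.41, adjusted p = 0.115). In the aorta the log2 fold change was 0.76 (SE 0.65, edgeR, adjusted p = 0.71).

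**Figure D4:**
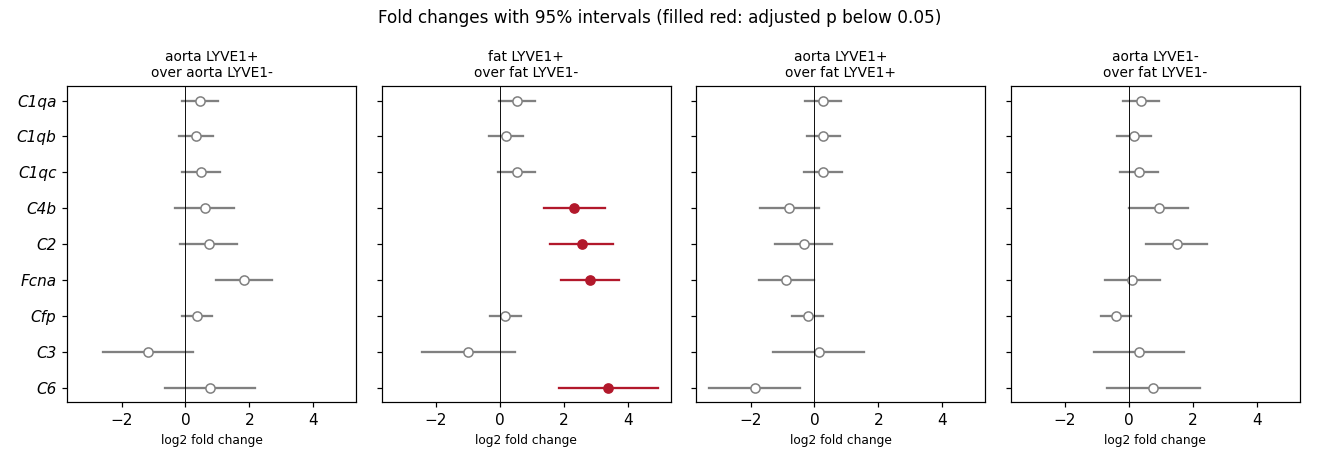
Log2 fold changes of the 9 genes with 95% intervals in the comparisons of sort within a tissue and of tissue within a sort, from the fit of all 12 libraries; filled red points passed an adjusted p of 0.05. Fcna, C2, C4b and C6 passed in fat LYVE1+ over fat LYVE1-, between 2.33 and 3.39.

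Averaged over aorta and fat, Fcna was 5.02-fold higher in LYVE1+ cells (log2 fold change 2.33, SE 0.29, edgeR, adjusted p = 0.000624). C2 was 3.12-fold higher (1.64, SE 0.31, edgeR, adjusted p = 0.00697), C4b 2.76-fold (1.46, SE 0.31, adjusted p = 0.0131) and C6 4.22-fold (2.08, SE 0.48, adjusted p = 0.0215). C1qa (0.50, edgeR, adjusted p = 0.137) and C1qc (0.50, adjusted p = 0.155) were not called, and were with the replicate block in fat (adjusted p = 0.00868 for C1qa and 0.00504 for C1qc). Without fat LYVE1+ library 1 both were called as well (adjusted p = 0.0447 for C1qa and 0.0436 for C1qc). The averaged C6 call ended without fat LYVE1+ library 2 (adjusted p = 0.0642) or 3 (0.0603) and without aorta LYVE1- library 1 (0.0705) or 3 (0.0512). With the library prefix as a term both C4b (1.48, edgeR, adjusted p = 0.0677) and C6 (2.21, adjusted p = 0.0721) missed the threshold.

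Whether the sort difference itself differed between the tissues was tested as the aortic log2 fold change minus that of fat. None of the 9 was called with edgeR, nor with DESeq2, beside 0.155% of all genes, and 3 had an unadjusted p below 0.05, beside 6.06% of all genes. Those were C2 (-1.83, SE 0.60, edgeR, adjusted p = 0.559), C4b (-1.73, SE 0.60, adjusted p = 0.636) and C6 (-2.63, SE 0.94, adjusted p = 0.663), all with the larger sort difference in fat. With the replicate block in fat, C4b (-1.90, SE 0.26, adjusted p = 0.00992) and C6 (-2.72, SE 0.32, adjusted p = 0.00992) were called. They were called also without both fat libraries numbered 1 (edgeR, adjusted p = 0.00643 for each), which leaves libraries 2 and 3 in each fat group. Neither was called in any of the 12 fits that left out a single library (edgeR, adjusted p up to 0.972 for C4b). In the aortic part of this difference, sort and library prefix are largely split alike. Fcna gave -0.98 (SE 0.56, edgeR, adjusted p = 0.908).

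Between tissues, none of the 9 was called in LYVE1+ cells (3% of all genes were called) or in LYVE1- cells (2.48% of all genes). In each, 2 of the 9 had an unadjusted p below 0.05, beside 15.3% of all genes in LYVE1+ and 15.2% in LYVE1- cells. DESeq2 called none in LYVE1+ cells and C2 in LYVE1- cells. In LYVE1+ cells C6 had 29.6 ± 8.10 CPM in the aorta and 107 ± 74.2 CPM in fat (SD, n = 3 each; log2 fold change -1.87, SE 0.66, edgeR, adjusted p = 0.175), and the call was made without fat LYVE1+ library 1 (-2.34, adjusted p = 0.0237). Fcna had 1622 ± 32.5 CPM in the aorta and 2987 ± 1002 CPM in fat (-0.88, SE 0.40, edgeR, adjusted p = 0.315), with no aortic library as high as the lowest of fat. Without both fat libraries numbered 1, C4b (-1.08, edgeR, adjusted p = 0.000638), C6 (-2.35, adjusted p = 0.000122) and Fcna (-1.14, adjusted p = 0.00585) were called lower in aorta LYVE1+ cells. Only libraries 2 and 3 of each fat group remain in that fit, so its spread is set without the libraries that lay apart. In LYVE1- cells C2 had 16.2 ± 6.54 CPM in the aorta and 5.72 ± 2.32 CPM in fat (2.82-fold higher in the aorta, edgeR, adjusted p = 0.103). Without both fat libraries numbered 1, C2 (1.22, edgeR, adjusted p = 0.043) and C4b (0.51, adjusted p = 0.0469) were called higher and Cfp lower (-0.58, adjusted p = 0.0419) in aorta LYVE1- than in fat LYVE1- cells. Libraries did not overlap for 3 of the 9 genes in LYVE1+ cells and 2 in LYVE1- cells, beside 20.6% and 21.1% of all genes. The prefix of the library identifier, RHH or RMM, is split exactly as tissue among the LYVE1- libraries, so prefix and tissue cannot be told apart there. In LYVE1+ cells with RMM libraries alone, C6 gave -2.02 (SE 0.73, edgeR, adjusted p = 0.348) and Fcna -0.87 (adjusted p = 0.365). All fat libraries carry RMM, and among aortic RHH libraries alone Fcna gave 1.82 (SE 0.31, edgeR, adjusted p = 0.0974) for LYVE1+ library 3 against the LYVE1- libraries, where the spread comes from the LYVE1- libraries alone and the lone LYVE1+ library is assumed to vary like them.

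Levels of different genes were set side by side per length of all annotated exons, and C1qb led in every group. These orders depend on that length, 1931 bases for C1qc and 1040 for C1qa. Before the division C1qc lay above C1qa in aorta LYVE1+ cells (4731 against 4011 CPM). In CPM per kilobase, fat LYVE1+ cells had 4514 of C1qb, 3214 of C1qa, 2174 of Fcna, 2027 of C1qc and 1201 of Cfp. C4b followed with 315 CPM per kilobase, then C6 with 30.1, C2 with 8.69 and C3 with 5.34. In fat LYVE1- cells the order began with C1qb at 3937 CPM per kilobase, C1qa at 2201, C1qc at 1414 and Cfp at 1069, and Fcna had 309. C4b had 62.8, C3 10.5, C6 2.84 and C2 1.48 CPM per kilobase there. In aorta LYVE1+ cells the levels were 5477 for C1qb, 3857 for C1qa, 2450 for C1qc, 1180 for Fcna, 1034 for Cfp, 182 for C4b, 8.32 for C6, 6.94 for C2 and 5.80 for C3. In aorta LYVE1- cells they were 4358 for C1qb, 2824 for C1qa, 1754 for C1qc, 808 for Cfp, 330 for Fcna, 120 for C4b, 13.0 for C3, 4.88 for C6 and 4.19 for C2. Neighbours in these orders differed by less than the larger of their SDs over libraries for C6 and C2 and for C2 and C3 in aorta LYVE1+ cells, and for C6 and C2 in aorta LYVE1- cells. The same held for Fcna and C1qc and for C2 and C3 in fat LYVE1+ cells, and for C1qc and Cfp and for C6 and C2 in fat LYVE1- cells.

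**Figure D5:**
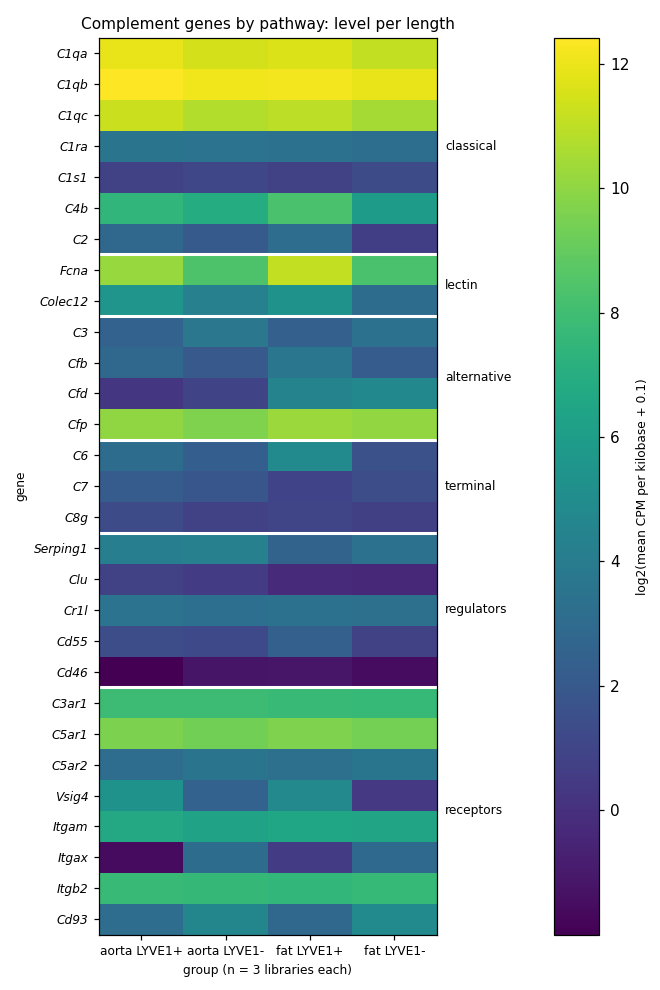
Mean level per exon length, as log2 of CPM per kilobase plus 0.1, of complement genes ordered by pathway in the 4 groups (colour scale at right, 3 libraries a group). C1qa, C1qb, C1qc, Fcna and Cfp are the brightest rows among the components, and C1ra, C1s1, C3 and C2 are dim.

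Other genes of the system were taken from a list of 52 further initiators, regulators, receptors and binding proteins, of which 31 were tested. In the fat comparison 2 passed as higher in LYVE1+ macrophages, 2 passed as lower and 27 did not pass, beside 3.93% of all genes called in either direction, with a median log2 fold change of 0.03. The higher were Vsig4, a macrophage receptor for C3 fragments (40.6 ± 20.7 CPM in fat LYVE1+, against 1.81 ± 0.31 CPM in fat LYVE1-, SD, n = 3 each here and below, log2 fold change 4.49, edgeR, adjusted p = 0.00052), and Colec12, a scavenger collectin (359 ± 146 CPM in fat LYVE1+, against 73.3 ± 32.6 CPM in fat LYVE1-, 2.29, edgeR, adjusted p = 0.00314). The lower were Cd93, a surface protein once described as a C1q receptor (48.6 ± 18.9 CPM in fat LYVE1+, against 191 ± 3.47 CPM in fat LYVE1-, -1.99, edgeR, adjusted p = 0.000719), and Lrp1, a large endocytic receptor (-0.57, adjusted p = 0.0457). In the aorta 1 was called higher and 1 lower, beside 0.542% of all genes. They were again Vsig4 (61.0 ± 28.8 CPM in aorta LYVE1+, against 8.37 ± 2.76 CPM in aorta LYVE1-, 2.87, edgeR, adjusted p = 0.0103) and Cd93 (59.6 ± 6.71 CPM in aorta LYVE1+, against 163 ± 37.4 CPM in aorta LYVE1-, -1.45, edgeR, adjusted p = 0.0137). Averaged over tissues 3 of the 31 were called higher in LYVE1+ cells, 2 lower and 26 neither, beside 901 of all 14216 genes called in either direction. Itgax, the CD11c chain of complement receptor 4, was 1 of the lower (-3.87, SE 0.79, edgeR, adjusted p = 0.0117). Itgax was not called in the aorta (-5.20, edgeR, adjusted p = 0.083) or in fat (-2.55, adjusted p = 0.248).

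Between tissues 2 of the 31 were called higher and 2 lower in aorta than in fat LYVE1+ cells (3% of all genes in either direction), and 1 higher and 1 lower in aorta than in fat LYVE1- cells (2.48% of all genes). Cfd, the protease factor D that fat cells are known to secrete, averaged 1.02 ± 0.19 CPM in aorta LYVE1+, against 20.2 ± 13.0 CPM in fat LYVE1+ libraries (-4.29, edgeR, adjusted p = 0.00229). It averaged 1.70 ± 1.08 CPM in aorta LYVE1-, against 24.8 ± 12.2 CPM in fat LYVE1- libraries (-3.81, edgeR, adjusted p = 0.00354). The 8 adipocyte markers, of which Cfd is one, gave sums of 10.4 to 22.5 CPM in aorta LYVE1+, against 64.3 to 258 CPM in fat LYVE1+, with 2 of the 8 at 0 in all aorta LYVE1+ libraries, and their part in Cfd was not tested. Lrp1 (0.77, edgeR, adjusted p = 0.0132) and Lair1, an inhibitory collagen and C1q receptor (1.36, edgeR, adjusted p = 0.0157), were called higher in aorta LYVE1+ than in fat LYVE1+ cells. Vtn, the plasma inhibitor vitronectin, had no count in the aorta LYVE1+ group, against 0.26 to 1.92 CPM in fat LYVE1+ (edgeR, adjusted p = 0.0371). The fat mean of 1.26 CPM was 19.9-fold over a floor of 3 counts over the aortic group. Vtn was near that floor in fat as well, where LYVE1+ library 2 had 3 counts, so the size of the fold change is uncertain. Vsig4 was called higher in aorta LYVE1- than in fat LYVE1- cells (2.20, edgeR, adjusted p = 0.0364).

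Some other initiators, terminal components and receptors are given by level, chosen after their values were seen. C1ra, the protease C1r, averaged 34.0 ± 1.83 CPM in aorta LYVE1+, against 33.3 ± 3.53 CPM in aorta LYVE1-, and 31.7 ± 10.6 CPM in fat LYVE1+, against 27.8 ± 7.88 CPM in fat LYVE1-. C1s1, the protease C1s, averaged 5.15 to 7.40 CPM over the 4 groups, and Masp1 and Masp2 at most 0.14 CPM. C7 averaged 4.79 to 12.0 CPM, while Hc, which encodes C5, and C9 averaged at most 0.85 and 0.10 CPM. The receptors for the C3a and C5a fragments were abundant and not called in any comparison: C5ar1 averaged 1680 to 2021 CPM and C3ar1 863 to 1026 CPM.

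The genes most like each member were found by the root mean square difference of log2 CPM, centred on each gene's mean, over the 12 libraries, among 6962 well expressed genes. C1qa and C1qc were each other's nearest (0.07), and the nearest to C1qb was Slc7a7 (0.10), an amino acid transporter. For C2 it was Colec12 (0.31) and for C4b it was Ednrb (0.28), an endothelin receptor. Fcna had Gprc5b (0.26) and then Enpep (0.29), a peptidase that was also nearest to C6 (0.56). The nearest gene to C3 was Ccdc80, which encodes a matrix protein, at 0.52. Among the members, C2 and C4b differed by 0.40 and C4b and Fcna by 0.58 on this scale.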

How the data were processed

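The authors deposited raw counts per Ensembl gene for the 12 libraries, per the file headers, and these whole-number counts were used as deposited. Per the submitters' processing notes the tools were STAR 2.5.2b, featureCounts 1.5.0 and edgeR 3.14.0, with genome GRCm38. Annotation release, strand setting and treatment of multiply mapped reads are not given in the sources used here. Per the labels' protocols, Smart-seq2 libraries were made from 2 ng of RNA and read as pairs of 51 cycles. Symbols, coordinates and union exon lengths came from GENCODE M21 (GRCm38), which named 46005 of the 46517 genes, and start windows from RefSeq.

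All 12 libraries entered an edgeR 4.0.16 quasi-likelihood fit (R 4.3.3) that had a term for each group and used TMM scaling, after genes with low counts were removed by filterByExpr. Tests were two-sided with Benjamini-Hochberg adjustment over 14216 genes and a threshold of 0.05. SE is the log2 fold change divided by the square root of F, and 95% intervals use the fit's degrees of freedom. The script was tested on simulated data. Levels are CPM, counts scaled to library size, after TMM scaling, and errors are SDs over 3 libraries. The members and lists were chosen with earlier results of these data known. All members are named, of the other complement genes up to 4 called per comparison with the smallest adjusted p, and levels of some uncalled partners, chosen after their values were seen.

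Alternatives were DESeq2 1.42.0, other size factors, no filter, fewer groups or libraries, the library prefix as a term and the replicate number as a block. Within fat, libraries of equal number correlated in their deviations from the group means (0.49, 0.28 and 0.18 over genes), so the numbers were taken as pairs there, a hint from the data and not from the labels. LYVE1+ library 2 with LYVE1- library 3 (0.19) and 3 with 2 (0.23, above 3 with 3) correlated as well, so the check sets library 1 apart more than it tells 2 from 3. In the aorta they did not (-0.04, -0.08 and -0.17). With 11 counts for C6 and 25 for C2 in fat LYVE1- library 1, counting error is widest for these. The deposited log2 CPM table was not used. One other complement gene of the list is counted but not reported here.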

Additional observations from a re-analysis of the deposited data

How the results depend on the processing

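Of 819 alternative values of the 9 genes, 741 kept their direction and their side of the threshold, 38 became called, 12 lost a call and 28 changed sign. None of the 28 was called before the change. Of the 9 genes, the count called in fat was 4, against 2 when the fat groups were fitted alone and 2 to 4 without single libraries. Over all alternatives it ranged from 2 to 6, and the replicate block also called C1qa and C1qc. The averaged count was 4, against 2 with the library prefix as a term and 3 to 6 without single libraries, and the block in fat also called C1qa and C1qc there. The aortic count was 0, against 1 with DESeq2, with no filter, with only the aortic groups or with the replicate block. It was 2 without both fat libraries numbered 1, a fit that left out no aortic library. Between tissues, the LYVE1+ count was 0, against 1 with no filter, 3 without both fat libraries numbered 1 and 0 to 1 without single libraries. The LYVE1- count was 0, against 1 with DESeq2, 1 with no filter and 3 without both fat libraries numbered 1. The count for the difference between tissues was 0, against 1 with no filter, 2 with the replicate block, 2 with the block in fat only and 2 without both fat libraries numbered 1. The cause of these changes was not tested.

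The replicate number as a block in both tissues gave C1qa 0.58 in fat (edgeR, adjusted p = 0.0363) and C1qc 0.55 (adjusted p = 0.0406), and for the difference between tissues C4b -1.89 (adjusted p = 0.0332) and C6 -2.73 (adjusted p = 0.00754). In the aorta same-numbered libraries did not deviate together, and no block was run between tissues, since nothing in the labels ties a number across tissues. The sign changed with the prefix as a term for C1qa in the difference between tissues (0.014), and without both fat libraries numbered 1 for C1qc there (0.025) and for C1qb (-0.070) and Fcna (-0.29) between LYVE1- groups. Without single libraries the values ranged across 0 for the difference between tissues from -0.28 to 0.14 (C1qa), -0.043 to 0.35 (C1qb), -0.24 to 0.22 (C1qc) and -1.58 to 0.30 (C3). They did so between LYVE1- groups from -0.070 to 0.31 (C1qb), -0.14 to 0.90 (C3) and -0.29 to 0.36 (Fcna), between LYVE1+ groups from -1.27 to 0.61 (C3), and in fat from -0.018 to 0.37 (C1qb) and -0.0044 to 0.32 (Cfp). Over the alternatives the number of all genes called ranged from 2 to 566 in the aorta (77 in the report), 206 to 1133 in fat (558), 278 to 1706 averaged (901), 0 to 108 for the difference (22), 46 to 931 between LYVE1+ groups (426) and 7 to 1024 between LYVE1- groups (353).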
